A study of Mus musculus with 16 samples.

Results

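The genes followed here build the Z-disc of the cardiac sarcomere or sit on the giant spring protein titin, and are Ankrd1, Ankrd23, Xirp2, Csrp3, Fhl1, Fhl2, Ttn, Tcap, Ldb3 and Actn2. They were chosen by name, as the entries of the count table whose gene identifiers carry these symbols, and each symbol matched 1 identifier. They are 10 of the 55487 genes in the table and 10 of the 18275 genes with enough counts to be tested, so none was lost to the filter on low counts. RNA from the apex of the heart of 16 mice was sequenced 4 weeks after surgery, with 4 mice in each of 4 groups. Control (Ctrl) mice, labelled WT, and mice with a CRISPR/Cas9 knockout (KO) of the long noncoding RNA Cardinal (Gm12295) underwent either a sham operation or transverse aortic constriction (TAC), in which a ligature narrows the aorta and the left ventricle must pump against a higher pressure. All mice weighed 25-30 g at surgery, and the study used males only. No restriction of the KO to a cell type is described, and the labels give no age. The comparisons ask how the stretch-sensing genes answered pressure overload and whether loss of Cardinal changed that answer.

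The Z-disc anchors the thin filaments of neighbouring sarcomeres and is crosslinked by alpha-actinin. Titin spans from the Z-disc to the M-band and works as a molecular spring, and proteins docked at its Z-disc end and along its elastic region can leave for the nucleus or recruit kinases when the muscle is loaded. Several of the genes that encode these docked proteins are long known as markers of the hypertrophic heart.

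Total counts per library ranged from 53169437 to 79404714, and the 10 genes together made up 1.09 to 2.03% of each library's counts. The mean count of a member in a group lay between 6032 (Fhl1 in KO sham) and 318700 (Ankrd1 in KO TAC), so counting error was small beside the spread between mice. CPM stands for the counts of a gene per 1000000 counts of its library, with TMM scaling. Cardinal stood at 3.25 to 3.86 CPM in Ctrl sham, 2.69 to 8.03 in Ctrl TAC, 0.30 to 0.55 in KO sham and 0.28 to 0.37 in KO TAC 1, 2 and 3, but at 4.55 CPM in the library labelled KO TAC 4. That library goes against its label, so the TMM-scaled log2 differences of the 10 genes that use the KO TAC group are given with and without it. Group means, levels per exon length and values under other scalings or added terms include it. The animal numbers of Ctrl TAC 2, 3 and 4 and of the library labelled KO TAC 4 start with 25 and those of the other 12 libraries with 3, and the labels do not say what the numbers stand for. The 8 cardiomyocyte markers summed to 37190 to 41300 CPM in Ctrl sham, 38430 to 39920 in KO sham, 34110 to 37750 in Ctrl TAC and 31880 to 32790 in KO TAC, with none of the markers at 0. The 6 fibroblast markers summed to 460 to 492, 455 to 490, 532 to 766 and 754 to 914 CPM in the same groups, again with none at 0. In bulk tissue fewer cells of a type and less RNA per cell cannot be told apart.

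Per kilobase of exon, the only scale on which genes are compared with each other here, the levels in Ctrl sham hearts spanned from 1537 ± 171 CPM per kb (SD, n = 4) for Tcap, which encodes the titin cap telethonin, to 26.9 ± 2.36 for Fhl1. Fhl2 (618 ± 34.2), Actn2 (454 ± 21.7), Ankrd1 (283 ± 41.0), Csrp3 (277 ± 13.3), Ldb3 (128 ± 3.09), Ankrd23 (71.2 ± 17.4), Xirp2 (39.4 ± 3.25) and Ttn (36.6 ± 2.35) lay between. Ankrd1 and Csrp3, and Xirp2 and Ttn, were neighbours whose levels did not differ beyond their spread. In Ctrl TAC hearts Ankrd1 stood at 1237 ± 287 CPM per kb, within the spread of Tcap at 1504 ± 328, and in KO TAC hearts it stood at 1594 ± 29.5, above Tcap at 1222 ± 61.2. Xirp2 moved from the level of Ttn to 142 ± 35.4 CPM per kb in Ctrl TAC and 171 ± 27.4 in KO TAC, against 39.2 ± 2.67 and 33.7 ± 4.72 for Ttn. The length is that of all annotated exons of a gene (116825 bases for Ttn, 948 for Tcap), so a gene whose long exons are skipped in the heart has its level understated.

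**Figure D1:**
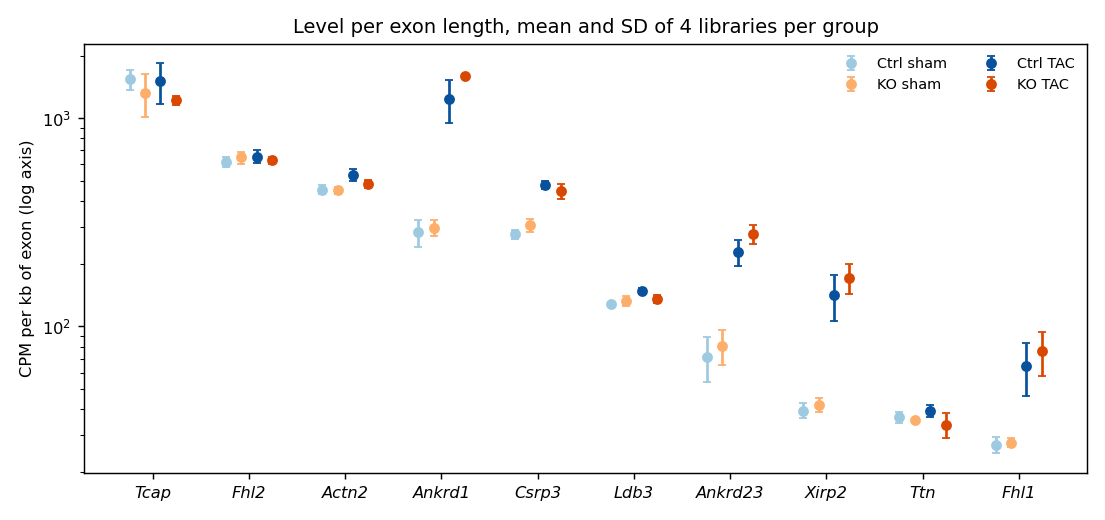
Level per exon length (CPM per kb of exon, log axis) of the 10 genes, ordered by their level in Ctrl sham hearts, with points at the mean and bars at the SD of 4 libraries per group. Tcap was at 1537 CPM per kb and Fhl1 at 26.9 in Ctrl sham, and Ankrd1 went from 283 in Ctrl sham to 1237 in Ctrl TAC and 1594 in KO TAC.

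The DNA before the transcription starts of these genes was read to show what the members share and what they do not. RefSeq (build GRCm38.p6) gave 14 start sites for 9 of the 10 genes and none for Tcap. The 250 bases before each start were searched on both strands for 5 short motifs of factors known in heart muscle: MCAT (CATTCC, bound by TEAD factors), the CArG box (bound by SRF), the MEF2 site, GATA (with A or T before it and A or G after it) and the TATA box (TATAAA). The lines below show 30 bases around every MCAT, CArG and MEF2 match, written 5′ to 3′ on the strand of the gene with the match in capitals, as the sites through which load-sensitive factors are known to act.
Ankrd1, chr19:36120037-36120066, minus strand, MCAT on the opposite strand: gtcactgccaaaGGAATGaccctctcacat
Ankrd1, chr19:36119950-36119979, minus strand, MCAT on the opposite strand: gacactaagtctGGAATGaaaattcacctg
Ankrd23, chr1:36535842-36535871, minus strand, MCAT: cccagtgggccaCATTCCcagaacggtatt
Fhl1, chrX:56779571-56779600, plus strand, CArG box: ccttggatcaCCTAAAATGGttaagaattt
Fhl2, chr1:43196838-43196867, minus strand, CArG box: catttagagaCCAAAAAAGGcttgcaggag
Fhl2, chr1:43163973-43164002, minus strand, CArG box: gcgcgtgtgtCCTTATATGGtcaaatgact
Ldb3, chr14:34588697-34588726, minus strand, CArG box: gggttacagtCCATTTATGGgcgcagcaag
Xirp2, chr2:67445918-67445947, plus strand, MEF2: agctcagttcCTAAAAATAGgtgctaggtt
Ttn, chr2:76982694-76982723, minus strand, MEF2: ttctgaaaggCTAAATTTAGcactgccaat
Fhl2, chr1:43196773-43196802, minus strand, MEF2: tggacatgccTTATTTATAActctgctgac
MCAT was in 2 of the 14 windows, where 12.6% of all 32851 windows of this length hold it. In the Ankrd1 window it lay at 210 to 205 and 123 to 118 bases before the start. In 1 Ankrd23 window it lay at 120 to 115 bases before the start, and the other Ankrd23 window held no match. A CArG box was in 5 of the 14 windows, of which both of Ldb3 hold the same site, against 1.47% of all windows. A MEF2 site was in 3 of the 14 windows, against 2.92%, and the one of Fhl2 overlaps a TATAAA match on the strand opposite to the gene. GATA was in 5 windows, of Ankrd1, Ankrd23, Csrp3, Fhl2 and Xirp2, against 26.5%, and TATAAA in 2, of Fhl1 and Fhl2, against 12.4%. A match is a description of the letters and not evidence that a factor binds, and no count table shows which start the heart used. Some windows overlap annotated exons of their own gene, so a match there can lie in transcribed DNA. All 250 bases of the Ankrd1 window, which holds both of its MCAT matches, and of the Ankrd23 window with GATA are exonic. So are 223 bases of the Fhl2 window with MEF2, 87 of the Fhl1 window with its CArG box and 75 of 1 Ldb3 window. The Ankrd23 window with MCAT holds none.

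After TAC, Ankrd1, Ankrd23, Xirp2 and Fhl1 rose between 2.41-fold (Fhl1 in Ctrl) and 5.36-fold (Ankrd1 in KO), Csrp3 rose by less, and Fhl2, Ttn and Tcap did not pass the test in either genotype with TMM scaling. In Ctrl hearts 7 of the 10 genes were called higher (edgeR quasi-likelihood test, Benjamini-Hochberg adjusted p under 0.05 over all genes tested), where 20.0% of all tested genes were called in either direction. The 7 were Ankrd1, Ankrd23, Xirp2, Fhl1, Csrp3, Actn2 and Ldb3, and none was called lower. In KO hearts 5 of the 10 were called higher, Ankrd1, Ankrd23, Xirp2, Fhl1 and Csrp3, where 34.3% of all genes were called. The median log2 fold change of the 10 genes was 0.51 in Ctrl and 0.32 in KO, beside medians of 0.00 over all genes tested in both genotypes. Both counts were the same without the library labelled KO TAC 4. In the same comparisons 2 of 6 fibroblast markers were called higher in Ctrl and 5 of 6 in KO. Of 8 cardiomyocyte markers 4 were called lower in Ctrl and 7 in KO, and no marker of either list was called the other way. The mean of the cardiomyocyte marker Actc1 went from 7151 to 7945 CPM in Ctrl and from 7142 to 7445 in KO. Myl3 (3913 and 3911 CPM in Ctrl) and the fibroblast marker Dpt (54.0 and 53.8 in Ctrl, 53.2 and 52.8 in KO) were level. The part of these markers in the results was not tested. The 4 macrophage markers summed to 63.8 to 84.4 CPM in Ctrl sham, 63.5 to 74.7 in KO sham, 92.8 to 105 in Ctrl TAC and up to 130 in KO TAC, with each TAC library above each sham library, and with 2 of 4 called higher in Ctrl and 4 of 4 in KO. Of 4 smooth muscle markers (summed to 76.5 to 127 CPM across all libraries) 1 was called higher in Ctrl and 2 in KO, and of 4 endothelial markers none in either. None of these markers was at 0, and their part was not tested.

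**Figure D2:**
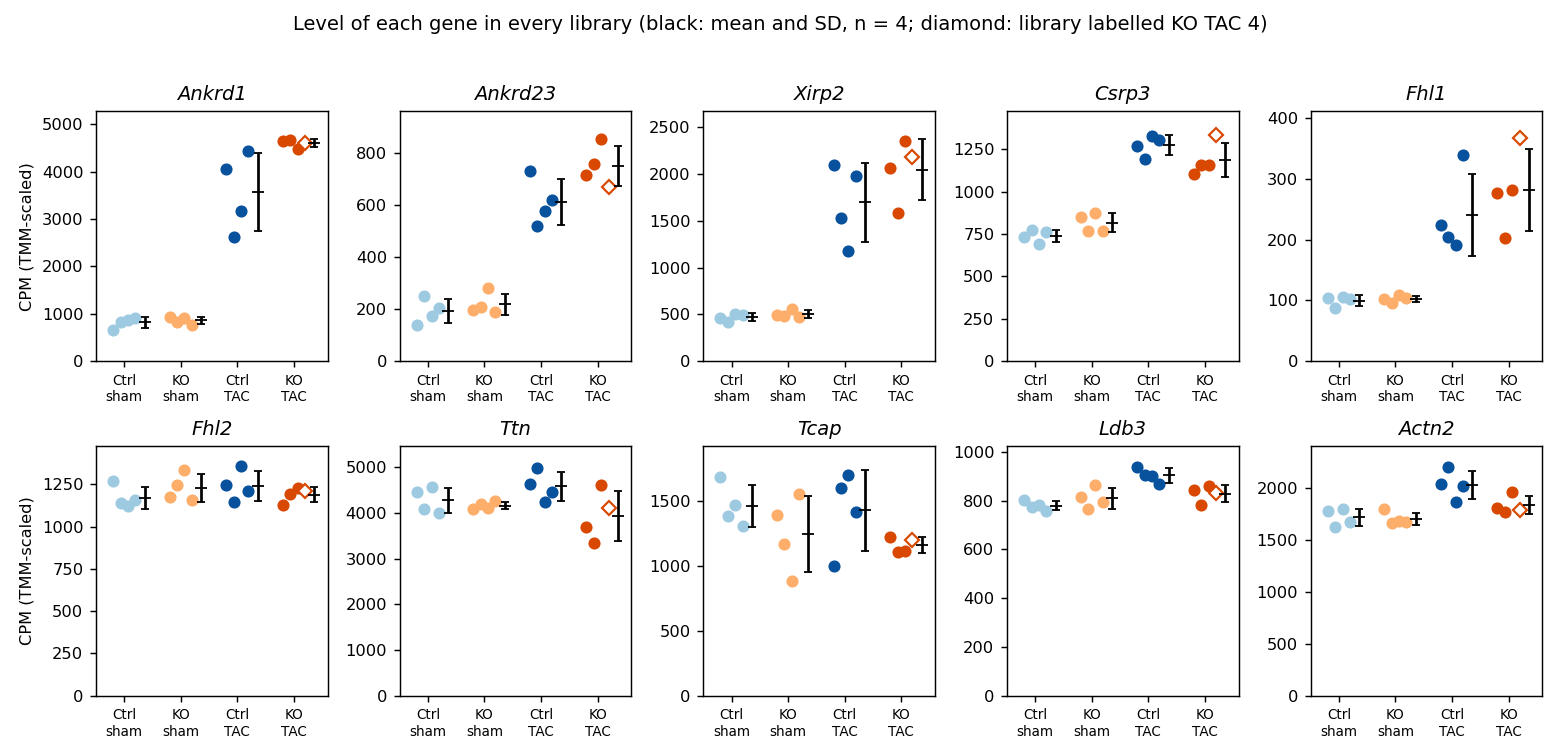
CPM of each of the 10 genes in all 16 libraries, 1 panel per gene with an axis from 0, with the mean and SD of each group in black and the library labelled KO TAC 4 as an open diamond. In the panel of Ankrd1 the sham libraries lie between 648 and 937 CPM and the TAC libraries between 2619 and 4662, while the panels of Fhl2, Ttn and Tcap show overlapping groups.

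Ankrd1 (ENSMUSG00000024803, chr19:36111961-36120099, minus strand) encodes CARP, an ankyrin-repeat protein that binds the elastic N2A region of titin and also acts as a transcriptional cofactor (gene positions are those of GENCODE M21 on GRCm38). It stood at 648, 823, 875 and 917 CPM in Ctrl sham 1 to 4 and at 4066, 2619, 3165 and 4429 CPM in Ctrl TAC 1 to 4. It stood at 937, 827, 901 and 771 CPM in KO sham 1 to 4 and at 4649, 4662, 4477 and 4616 CPM in KO TAC 1 to 4. Every TAC library was far above every sham library in both genotypes, and the KO TAC libraries lay close together while the Ctrl TAC libraries were spread. The log2 fold change of TAC against sham was 2.13 (SE 0.14, adjusted p 1.34e-07) in Ctrl, a 4.38-fold rise. It was 2.42 (SE 0.14, adjusted p 1.03e-08) in KO, and also 2.42 without the library labelled KO TAC 4 (adjusted p 9.45e-08).

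Ankrd23 (ENSMUSG00000067653, chr1:36530188-36536883, minus strand) encodes DARP, the relative of CARP that binds the same stretch of titin. Its levels were 140, 251, 173 and 204 CPM in Ctrl sham 1 to 4 and 732, 521, 579 and 620 CPM in Ctrl TAC 1 to 4. In KO they were 197, 207, 280 and 188 CPM after sham and 717, 758, 855 and 672 CPM after TAC. The lowest TAC library lay above the highest sham library in each genotype. The rise was 1.67 log2 (SE 0.17, adjusted p 1.24e-05) in Ctrl and 1.78 log2 (SE 0.17, adjusted p 2.29e-06) in KO, and 1.83 log2 without the library labelled KO TAC 4. The value is uncertain in 1 respect, since 2109 of the 2697 exonic bases of Ankrd23 are also annotated to Gm42417 on the same strand and the reads of the pair may be split. Gm42417 was counted at 7.95 ± 3.39 CPM in Ctrl sham, 20.6 ± 4.35 in KO sham, 41.7 ± 9.16 in Ctrl TAC and 51.5 ± 6.10 in KO TAC. Its libraries ranged from 5.81 to 13.0 CPM in Ctrl sham and from 14.6 to 24.7 in KO sham. No gene was called between sham groups, and the share of all genes with sham groups this far apart was not counted. With the pair summed, an alternative chosen after seeing the data, the log2 rises were 1.71 in Ctrl and 1.75 in KO. Summing changed no call of Ankrd23 in the 5 comparisons.

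Xirp2 (ENSMUSG00000027022, chr2:67446002-67526614, plus strand) encodes a Xin-repeat protein that binds actin and sits near Z-discs and intercalated discs. It stood at 463, 421, 507 and 497 CPM in Ctrl sham 1 to 4 and at 2101, 1532, 1177 and 1979 CPM in Ctrl TAC 1 to 4. In KO it stood at 497, 483, 561 and 476 CPM after sham and at 2068, 1588, 2356 and 2179 CPM after TAC. No TAC library came near the sham range in either genotype, and the TAC libraries overlapped between genotypes. The rises were 1.85 log2 (SE 0.16, adjusted p 1.87e-06) in Ctrl and 2.02 log2 (SE 0.16, adjusted p 2.46e-07) in KO, and 1.99 log2 without the library labelled KO TAC 4.

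Among the LIM-domain proteins, Fhl1 (ENSMUSG00000023092, chrX:56731787-56793346, plus strand) binds titin and couples stretch to MAP kinases. It stood at 105, 87.0, 106 and 102 CPM in Ctrl sham 1 to 4 and at 225, 205, 192 and 340 CPM in Ctrl TAC 1 to 4. In KO the levels were 102, 95.7, 108 and 104 CPM after sham and 277, 202, 282 and 367 CPM after TAC. Library 4 was the highest of its group in both TAC groups, and sham and TAC did not overlap. The rises were 1.27 log2 (SE 0.18, adjusted p 0.00022) in Ctrl and 1.46 log2 (SE 0.18, adjusted p 2.75e-05) in KO, and 1.31 log2 without the library labelled KO TAC 4.

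Csrp3 (ENSMUSG00000030470, chr7:48830398-48848033, minus strand) encodes the muscle LIM protein MLP, a partner of telethonin at the Z-disc that has been placed in the cardiac stretch sensor. It stood at 731, 774, 694 and 761 CPM in Ctrl sham 1 to 4 and at 1270, 1193, 1330 and 1303 CPM in Ctrl TAC 1 to 4. In KO it stood at 851, 771, 877 and 768 CPM after sham and at 1102, 1159, 1159 and 1333 CPM after TAC. The groups were tight, and every TAC library was above every sham library. The rise was 0.78 log2 (SE 0.06, adjusted p 2.35e-07) in Ctrl and 0.54 log2 (SE 0.06, adjusted p 3.68e-06) in KO, or 0.48 log2 (adjusted p 1.45e-05) without the library labelled KO TAC 4, which was the highest KO TAC library.

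Fhl2 (ENSMUSG00000008136, chr1:43123074-43196984, minus strand), the LIM-domain relative of Fhl1 that docks metabolic enzymes and signalling proteins to titin, was not called in either genotype. It ranged from 1124 to 1267 CPM in Ctrl sham, 1155 to 1337 in KO sham, 1147 to 1356 in Ctrl TAC and 1125 to 1226 in KO TAC, and all 4 ranges overlapped. The log2 fold changes were 0.08 (95% interval -0.04 to 0.20, adjusted p 0.39) in Ctrl and -0.05 (-0.17 to 0.07, adjusted p 0.588) in KO, or -0.06 without the library labelled KO TAC 4. The promoter windows of both Fhl1 and Fhl2 held a CArG box, so these letters were found before a gene that rose and before one that did not pass the test.

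Ttn (ENSMUSG00000051747, chr2:76703980-76982547, minus strand) encodes titin itself. It ranged from 4006 to 4563 CPM in Ctrl sham, 4078 to 4254 in KO sham, 4247 to 4982 in Ctrl TAC and up to 4614 in KO TAC, where the mean was 3937 ± 551 CPM (SD, n = 4). The groups overlapped, and the widest spread was in KO TAC. The log2 fold changes were 0.10 (95% interval -0.06 to 0.26, adjusted p 0.435) in Ctrl and -0.08 (-0.24 to 0.08, adjusted p 0.484) in KO, or -0.10 without the library labelled KO TAC 4. Gene counts do not resolve the titin isoforms.

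Tcap (ENSMUSG00000007877, chr11:98383811-98384953, plus strand) caps the Z-disc end of titin and binds MLP. Its levels were 1679, 1381, 1463 and 1305 CPM in Ctrl sham 1 to 4, 1390, 1164, 882 and 1554 in KO sham, 994, 1599, 1697 and 1414 in Ctrl TAC and 1217, 1104, 1114 and 1200 in KO TAC. It was the most variable of the 10 genes among sham hearts of the KO, and the groups overlapped. The log2 fold changes were -0.03 (95% interval -0.36 to 0.30, adjusted p 0.927) in Ctrl and -0.11 (-0.44 to 0.22, adjusted p 0.678) in KO, or -0.12 without the library labelled KO TAC 4. Changes of up to about the ends of these intervals in either direction were therefore not excluded.

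The scaffold genes moved little. Ldb3 (ENSMUSG00000021798, chr14:34526603-34588682, minus strand) encodes ZASP (Cypher), a PDZ-LIM protein that binds alpha-actinin, and stood at 803, 776, 782 and 757 CPM in Ctrl sham 1 to 4 and at 940, 904, 901 and 869 CPM in Ctrl TAC 1 to 4. Actn2 (ENSMUSG00000052374, chr13:12269426-12340760, minus strand), the sarcomeric alpha-actinin that crosslinks actin and titin, stood at 1786, 1629, 1798 and 1679 CPM in Ctrl sham and at 2045, 2204, 1870 and 2020 CPM in Ctrl TAC. Both genes were higher in every Ctrl TAC library than in any Ctrl sham library, Ldb3 by 0.21 log2 (SE 0.05, adjusted p 0.00382) and Actn2 by 0.24 log2 (SE 0.06, adjusted p 0.00501). In KO hearts Ldb3 ranged from 766 to 866 CPM after sham and 781 to 861 after TAC, and Actn2 from 1670 to 1797 and 1775 to 1967. Their KO differences were 0.03 log2 (SE 0.05, adjusted p 0.643) and 0.11 log2 (SE 0.06, adjusted p 0.157), with overlapping groups, and 0.03 and 0.12 log2 without the library labelled KO TAC 4. The difference between genotypes in these responses was tested as an interaction and did not pass, with -0.18 log2 for Ldb3 (unadjusted p 0.0158, adjusted p 0.336) and -0.13 log2 for Actn2 (adjusted p 0.559), or -0.18 and -0.12 log2 without the library labelled KO TAC 4.

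The small or absent differences of the structural genes depended on the scaling of the libraries. Of the 8 cardiomyocyte markers 4 were called lower after TAC in Ctrl and 7 in KO. When the libraries were scaled to these 8 markers, the median of all genes shifted by 0.19 in Ctrl and by 0.35 in KO on the log2 scale. On that scale 9 of the 10 genes were called higher in each genotype, all but Tcap, where 29.9% of all genes were called higher in Ctrl and 55.2% in KO. The values of Fhl2 (0.27 in Ctrl and 0.31 in KO) and Ttn (0.29 and 0.28) were then near that shift, whereas those of Ankrd1 (2.32 and 2.78), Xirp2 (2.04 and 2.38), Ankrd23 (1.86 and 2.14), Fhl1 (1.46 and 1.82) and Csrp3 (0.97 and 0.90) stayed well above it.

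**Figure D3:**
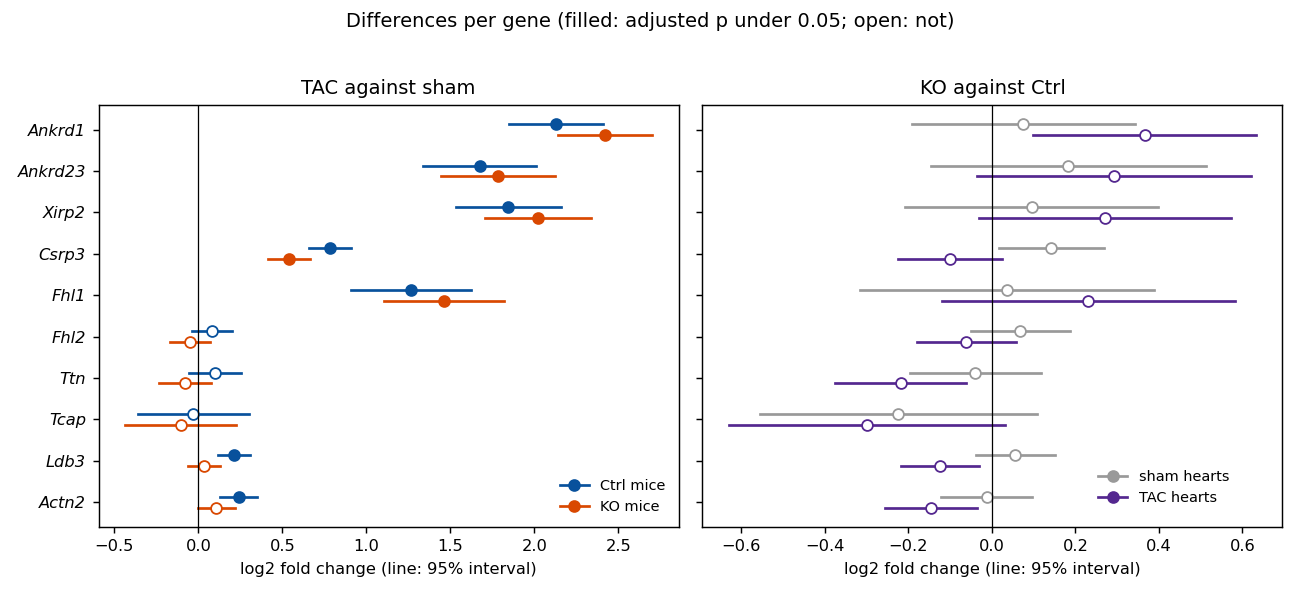
Log2 fold change of each gene with its 95% interval (from the SE), TAC against sham at left for Ctrl and KO mice, and KO against Ctrl at right for sham and TAC hearts, on different axis ranges. Filled points passed an adjusted p of 0.05. The largest values are those of Ankrd1, at 2.13 in Ctrl and 2.42 in KO, and no point at right is filled.

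Ratios of 2 genes within a library do not depend on the scaling, and 4 pairs of related genes were compared by an exact two-sided permutation test of the log2 count ratio. With 4 libraries against 4 the smallest p this test can give is 0.0286, and adjusted over the 16 comparisons it became 0.0762, so no ratio was called at 0.05. Fhl1 was counted at 0.0765 to 0.0942 of Fhl2 in Ctrl sham and 0.142 to 0.281 in Ctrl TAC, a difference in log2 ratio of 1.15 (p 0.0286, adjusted p 0.0762). In KO the Fhl1 ratio was 0.0767 to 0.0896 after sham and 0.170 to 0.304 after TAC, a difference of 1.48 (p 0.0286, adjusted p 0.0762). Sham and TAC libraries did not overlap in this ratio in either genotype.

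In the Xin-repeat pair it was the gene outside the members, Xirp1, that lost ground to Xirp2. The Xirp1 to Xirp2 ratio was 0.382 to 0.433 in Ctrl sham, 0.370 to 0.403 in KO sham, 0.142 to 0.189 in Ctrl TAC and 0.129 to 0.185 in KO TAC. The differences in log2 ratio were -1.29 in Ctrl and -1.44 in KO (p 0.0286 and adjusted p 0.0762 for both, exact permutation test). Ankrd1 to Ankrd23 differed by 0.42 (p 0.0571) in Ctrl and 0.63 (p 0.0286) in KO, and Csrp3 to Tcap by 0.84 (p 0.0286) in Ctrl and 0.62 (p 0.0571) in KO, by the same exact permutation test. Without the library labelled KO TAC 4 the KO differences were 1.35 for Fhl1/Fhl2, -1.40 for Xirp1/Xirp2, 0.58 for Ankrd1/Ankrd23 and 0.58 for Csrp3/Tcap. Between KO and Ctrl the p of the 8 ratio comparisons ranged from 0.114 to 0.743 by exact permutation.

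Between genotypes none of the 10 genes was called with TMM scaling and all libraries. In sham hearts edgeR called none, where 0% of all genes were called, and DESeq2 called none of the 10 either. Csrp3 was the 1 gene of the 10 with an unadjusted p under 0.05, where 2.62% of all genes had one, at 0.14 log2 higher in KO (p 0.0382, adjusted p 1). In TAC hearts edgeR and DESeq2 each called none of the 10, where edgeR called 2.68% of all genes, and 4 of the 10 had an unadjusted p under 0.05, Ankrd1, Ttn, Ldb3 and Actn2, where 18.5% of all genes had one. The median log2 difference of all 10 was -0.08, beside 0.00 over all genes. The genotype by surgery interaction was called for none of the 10 by either tool and for 0.0109% of all genes by edgeR, with unadjusted p under 0.05 for Csrp3 (-0.24 log2, p 0.0147, adjusted p 0.331) and Ldb3, 2 of the 10 where 11.1% of all genes had one. Without the library labelled KO TAC 4 the Csrp3 interaction was -0.30 log2, and none of the 10 was called in these comparisons.

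Ankrd1 had the largest positive difference between KO TAC and Ctrl TAC, 0.37 log2 (SE 0.14, adjusted p 0.158), and its KO TAC libraries (4477 to 4662 CPM) all lay above the highest Ctrl TAC library (4429 CPM). Ldb3 was the other gene whose TAC groups did not overlap, with 781 to 861 CPM in KO TAC below 869 to 940 CPM in Ctrl TAC, a difference of -0.12 log2 (SE 0.05, adjusted p 0.166). These are 2 of the 10 genes, where 10.5% of all tested genes had TAC groups without overlap. The value of Ankrd1 was 0.36 log2 (adjusted p 0.22) without the library labelled KO TAC 4, 0.49 log2 (adjusted p 0.048) without Ctrl TAC 4, 0.24 log2 (adjusted p 0.378) without Ctrl TAC 2, and 0.31 log2 (adjusted p 0.425) with a term for the animal-number series in the fit. Leaving out Ctrl TAC 4 thus changed the call. Within either animal-number series a genotype is left with a lone TAC library, so no value within a series was tested.

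Ttn and Actn2 lay lower in KO TAC than in Ctrl TAC hearts, by -0.22 log2 (SE 0.08, adjusted p 0.147) and -0.15 log2 (SE 0.06, adjusted p 0.162), with overlapping groups. Actn2 stood at 1816, 1775, 1967 and 1795 CPM in KO TAC 1 to 4. Tcap had the largest negative value, -0.30 log2 (95% interval -0.63 to 0.03, adjusted p 0.369). The other 5 were at 0.29 log2 for Ankrd23 (-0.04 to 0.62), 0.27 for Xirp2 (-0.03 to 0.57), 0.23 for Fhl1 (-0.12 to 0.58), -0.06 for Fhl2 (-0.18 to 0.06) and -0.10 for Csrp3 (-0.23 to 0.02), each with its 95% interval. Without the library labelled KO TAC 4 the values were -0.24 for Ttn, -0.13 for Actn2, -0.12 for Ldb3, -0.32 for Tcap, 0.34 for Ankrd23, 0.24 for Xirp2, 0.08 for Fhl1, -0.07 for Fhl2 and -0.16 for Csrp3. Single libraries also moved Fhl1 to 0.45 (without Ctrl TAC 4), Csrp3 to -0.07 (without KO TAC 1), Xirp2 to 0.13 (without Ctrl TAC 3) and Fhl2 to -0.01 (without Ctrl TAC 3), and none of these 4 was called in those fits. Ttn ranged from -0.30 to -0.15 and Tcap from -0.44 to -0.20 as libraries were dropped in turn. Their smallest adjusted p in edgeR were 0.0708 (Ttn, without KO TAC 3) and 0.112 (Tcap, without Ctrl TAC 1), so neither was called. Under the cardiomyocyte marker scaling, which shifted the median of all genes in this comparison by 0.15 log2, the negative values of Csrp3, Fhl2, Ldb3 and Actn2 turned to between 0.00 and 0.09 and that of Ttn to -0.07, and Ankrd1 was called at 0.51 log2 (adjusted p 0.0445), where 14.5% of all genes were called higher on that scale. The markers themselves were lower in KO TAC than in Ctrl TAC, and their part in these differences was not tested.

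The wider Z-disc was described with 4 lists of genes. Over all tested genes 20.0% were called in either direction after TAC in Ctrl and 34.3% in KO, which is the background for each list. Of 20 other Z-disc genes 11 were called higher and 1 lower after TAC in Ctrl, and 11 higher and none lower in KO, with a median of 0.27 and 0.24 log2. Synpo2l, an actin-associated Z-disc protein, had the largest rise in Ctrl (1.40 log2, from 119 ± 6.52 to 314 ± 103 CPM) and in KO (1.58 log2). Filamin C (Flnc, 1.02 log2) and myotilin (Myot, 0.87 log2) followed in Ctrl, and calsarcin-2 (Myoz1, 1.49 log2, at under 1 CPM throughout) and the PDZ-LIM gene Pdlim3 (0.92 log2) in KO. Flnc, Myot and Pdlim3 were called higher in both genotypes. The Myot call in KO held in only 10 of 16 fits that dropped a different library each, with adjusted p up to 0.099 in edgeR. Dropping KO sham 1, 2 or 4, or KO TAC 1, 2 or 4, lost it. Nebl, which encodes the actin-binding nebulette, fell by 0.29 log2 in Ctrl (adjusted p 0.0177), a call that held in 13 of the 16 leave-one-out fits, each without a different library.

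The close relatives of the 10 genes were listed apart. Of 10 such paralogs 9 could be tested (not Fhl5), and 7 were called higher after TAC in each genotype and none lower (all genes, either direction: 20.0% in Ctrl, 34.3% in KO). Ankrd2, the third gene of the family of Ankrd1 and Ankrd23 and better known from skeletal muscle, had the largest log2 fold change, 2.91 in Ctrl and 2.21 in KO, but stood at 0.30 ± 0.13 CPM in Ctrl sham and 2.24 ± 0.94 in Ctrl TAC. The 6 skeletal muscle markers summed to 1.24 to 5.35 CPM across all libraries. Csrp2, the relative of Csrp3 known from smooth muscle, rose by 0.86 log2 in Ctrl and 1.26 in KO. Fhl4 rose by 0.70 log2 in Ctrl, a call that held in 13 of the 16 fits, and was not called in KO. It stood at only 0.34 CPM in Ctrl sham and 0.54 in Ctrl TAC. Fhl3 rose by 0.83 log2 and the non-sarcomeric alpha-actinin Actn1 by 0.75 in KO, and Xirp1 by 0.53 in Ctrl and 0.56 in KO. Fhl3 (5.93 to 8.67 CPM) and Actn1 (24.9 to 34.8 CPM, group means) were also called higher in Ctrl.

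Titin's other partners moved in both directions. Of 17 titin-bound and M-band genes 6 were called higher and 2 lower in Ctrl, and 4 higher and 4 lower in KO, with medians near 0 (all genes, either direction: 20.0% in Ctrl, 34.3% in KO). Among the M-band genes, Myom3 rose by 0.80 log2 in Ctrl and 0.98 in KO (from under 4 CPM) and Myom1 by 0.36 and 0.30. The small heat shock protein gene Cryab, also in this list, rose by 0.34 log2 in Ctrl. Cmya5, which encodes myospryn, fell by 0.32 log2 in Ctrl and 0.51 in KO, and Lrrc39 (myomasp) by 0.33 and 0.42. The Cmya5 call in Ctrl held in 12 of the 16 fits. With a term for the animal-number series in the fit the Ctrl calls of Cmya5 (adjusted p 0.155), Cryab (0.0662) and Myom3 (0.0606) were lost, as was that of Fhl4 (0.108).

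Of 22 signalling and transcription partners 7 were called higher and 4 lower in Ctrl and 9 higher and 6 lower in KO (all genes, either direction: 20.0% in Ctrl, 34.3% in KO). Casq2, the calcium buffer of the sarcoplasmic reticulum, rose by 0.44 log2 in Ctrl and 0.38 in KO, the kinase gene Prkca by 0.38 and 0.44, and Wwtr1, which encodes the TEAD coactivator TAZ, by 0.46 in KO. Wwtr1 was also called higher in Ctrl (53.8 to 64.9 CPM, group means). Srf, which encodes the factor that binds CArG boxes, rose by 0.32 log2 in Ctrl (a call that held in 11 of the 16 fits). Prkce fell by 0.39 log2 in Ctrl and 0.45 in KO, and Ybx1, whose protein binds CARP, by 0.26 and 0.33.

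Between KO TAC and Ctrl TAC 3 of the listed genes were called, where 2.68% of all tested genes were called. They were 1 of 20 other Z-disc genes, 1 of 17 titin-bound genes, 1 of 9 tested paralogs and none of 22 partners. Pdlim3 was higher in KO (18.9 ± 2.03 against 12.7 ± 2.43 CPM, 0.57 log2, adjusted p 0.0196), as was Csrp2 (14.6 ± 1.73 against 10.9 ± 0.75 CPM, 0.43 log2, adjusted p 0.0202). Obsl1, which encodes a linker of titin and myomesin, was lower (101 ± 3.63 against 123 ± 13.3 CPM, -0.29 log2, adjusted p 0.0242). All 3 calls were lost without Ctrl TAC 2 or without KO TAC 2, that of Pdlim3 also without KO TAC 1, those of Obsl1 and Csrp2 without KO TAC 3, and that of Csrp2 without Ctrl TAC 3. None of the 3 was called with a term for the animal-number series (adjusted p 0.106, 0.112 and 0.124). No listed gene was called in sham hearts or for the interaction. Without the library labelled KO TAC 4, 10 in place of 11 other Z-disc genes were called higher after TAC in KO, and the other counts over the lists were as given.

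**Figure D4:**
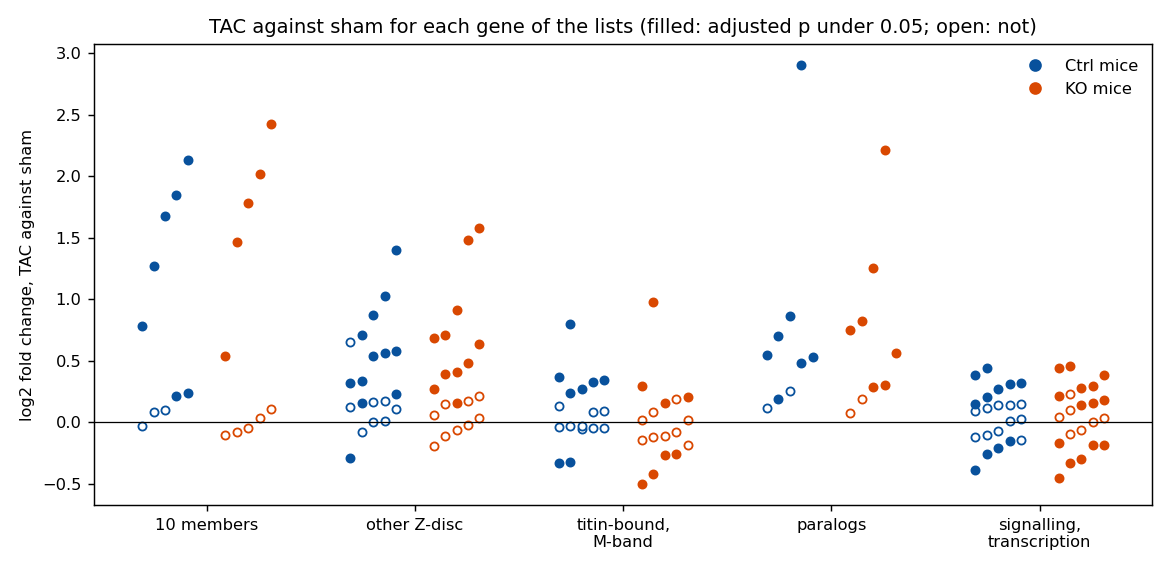
Log2 fold change of TAC against sham for the 10 members and for each tested gene of the 4 lists, in Ctrl (blue) and KO (orange) mice, with filled points for an adjusted p under 0.05. Ankrd2 is the highest paralog in both genotypes, at 2.91 and 2.21, and Synpo2l the highest other Z-disc gene, at 1.40 and 1.58.

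The genes whose levels ran most nearly parallel to each member were sought over the 16 libraries, among 10150 genes with an average of at least 2 log2 CPM. The likeness is Pearson's r of log2 CPM, which in these libraries carries the sham to TAC difference as well as depth and the animals that all genes share, and it is given with no test. Ankrd1 ran nearest to Fstl1 and Mfap5 (0.993 each), Ankrd23 to Loxl1 (0.989) and Col4a1 (0.984), and Fhl1 to Mrc2 (0.973) and Il18bp (0.965), of which Mfap5, Loxl1 and Col4a1 encode proteins of the extracellular matrix or its crosslinking. Xirp2 ran nearest to the kinesin gene Kif5b (0.989) and to Itga9 (0.988), and Csrp3 to Masp1 (0.974) and Gnao1 (0.970). Ttn ran nearest to Rptor (0.935) and Hipk2 (0.912), Tcap to Phldb1 (0.932) and Slc44a2 (0.914), and Fhl2 to Txnl4b (0.750) and Oxnad1 (0.719). Ldb3 ran nearest to Klhl34 (0.897) and Synpo (0.889), and Actn2 to Pakap (0.906) and to the M-band gene Myom1 (0.898).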

How the data were processed

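Poly(A)-selected RNA was sequenced as read pairs of 150 bases in 16 mouse hearts. The authors deposited 1 table of gene-level counts, which are not normalized. Per the submitters' processing notes cutadapt 2.3, FastQC, HISAT2 2.1.0 and edgeR 3.26.1 were used with build GRCm38. The counting program, its annotation and its use of strand are not given in the sources used here, so overlapping genes may share or lose counts. Of the 55487 identifiers 55227 (99.5%) were matched to GENCODE M21 for symbols and exon lengths, and unmatched ones held 0.00355% of counts. No per-sample column was left unused and no 2 columns were identical.

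Counts were filtered (filterByExpr), scaled (TMM) and fitted with the quasi-likelihood model of edgeR 4.0.16 (R 4.3.3) over all 16 libraries with 1 mean per group, and p was adjusted by Benjamini-Hochberg over 18275 genes. The SE of a log2 fold change is its size divided by the root of the F statistic, and 95% intervals take the SE as that of a normal estimate. The code was tested on simulated data. DESeq2 1.42.0 was an alternative, as were other scalings and filters, left-out libraries and animal-number terms. Named genes are the 10 members, the 3 largest called rises and falls of each list and comparison, and the 2 genes most alike to each member, and 1 gene that this rule names is not reported here. Members and lists were chosen with earlier results of these data known.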

Additional observations from a re-analysis of the deposited data

Results flagged for a closer look

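Of 60 groups of 4 libraries examined (the 10 genes, Cardinal and the 4 ratios, each in 4 groups), 3 held a library whose gap to the nearest of the others was, as a share of the group's whole range, above Dixon's critical value, and chance flags about 1 group in 20. Actn2 in KO sham 1 stood at 1797 CPM, above 1670 to 1686 CPM in the other 3. Cardinal stood at 8.03 CPM in Ctrl TAC 1, against 2.69 to 3.37 CPM in the others. Cardinal stood at 4.55 CPM in the library labelled KO TAC 4, against 0.28 to 0.37 CPM in KO TAC 1 to 3.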

How the results depend on the processing

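The counts of called members, 7, 5, 0, 0 and 0 in the 5 comparisons, were the same under DESeq2, DESeq2 size factors, other filters, a threshold of 0.01, animal-number terms and removal of mitochondrially encoded genes. The cardiomyocyte marker scaling gave 9 for TAC against sham in each genotype and 1 for KO against Ctrl in TAC. Leaving out 1 library gave 0 to 1 for KO against Ctrl in TAC, with 1 (Ankrd1) without Ctrl TAC 4. Among the settings run, that marker scaling alone turned a direction by more than the SE of the value. TAC against sham it turned to 0.31 for Fhl2, 0.28 for Ttn and 0.25 for Tcap in KO and to 0.15 for Tcap in Ctrl. KO against Ctrl in TAC it turned to 0.0514 for Csrp3, 0.0936 for Fhl2, 0.0281 for Ldb3 and 0.0039 for Actn2, and the interaction to 0.0418 for Fhl2 and 0.0344 for Actn2. These follow from its shift of all genes. With a term for the animal-number series, titin-bound genes called in Ctrl went from 6 to 2 higher and from 2 to 1 lower, other Z-disc genes called lower in KO from 0 to 1, and the 3 listed calls between TAC groups to 0, while all genes called there went from 489 to 12. DESeq2, for the lists chosen after seeing the data, called 2 titin-bound genes lower, 2 paralogs higher and 1 partner higher between TAC groups, and 1180 genes in all. Leaving out 1 library moved the ratio differences of TAC against sham within 0.96 to 1.29 (Ctrl) and 1.35 to 1.63 (KO) for Fhl1/Fhl2 and -1.35 to -1.21 and -1.52 to -1.40 for Xirp1/Xirp2. No paired analysis was possible because the labels give no replicate numbers, and those used here follow accession order.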
